A study of Mus musculus with 28 samples.

Results

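The 9 genes described here encode enzymes that convert lanosterol, the first sterol of the pathway, to cholesterol: Cyp51, Tm7sf2, Lbr, Msmo1, Nsdhl, Hsd17b7, Ebp, Sc5d and Dhcr7. They were taken by name, and all 9 were found among the 35928 gene symbols of the liver and pancreas files (set 2) and among the 24845 gene rows of the liver and lung table (set 1). The mice carry human APOBEC3B (A3B), a cytidine deaminase, fused to turboGFP behind a doxycycline-responsive element in the ColA1 locus. A CAGs-rtTA3 driver, active in many adult tissues, switches it on in mice fed 625 ppm doxycycline. Set 2 holds livers of 6 A3B mice and 2 controls and pancreases of 6 A3B mice and 2 controls. Set 1 holds livers of 3 A3B mice and 3 controls and lungs of 3 A3B mice and 3 controls.

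A3B mice are labelled A3B + CAGS-rtTA, with 10 days on the diet in set 2 and 10 or 14 days in set 1. Controls are labelled A3B without the driver, with 10 days in set 2 and 15 days in set 1. In the liver and lung of set 1 the labelled days thus differ between the groups and cannot be told apart from the transgene. The labels and the study do not match at every point. Control liver 11 of set 1 carries both transgenes by its label, and control lung 87 carries the driver alone (CAGs). In the pancreas, A3B samples 44 and 137 are labelled A3B alone and controls 45 and 168 carry the label with both transgenes, so groups were taken from the sample titles. The study's animal list gives no doxycycline for most controls of set 1, and a legend of the study calls a pair of pooled RNA-seq controls untreated where the labels give 10 days, whereas its methods say that control littermates received doxycycline. The diet of the controls is therefore uncertain, and diet and transgene may not be told apart. A3B mice were taken at a humane end point and controls were sacrificed, so the terminal state of the animals cannot be told apart from the transgene in any comparison. In set 1 the transgene was at 705 to 1710 TPM in A3B livers and at 90.6 to 281 TPM in A3B lungs, against at most 0.144 and 0.526 TPM in the controls, and it was not analysed in set 2. TPM values are counts corrected for transcript length and scaled to the same total in each library. The 2 sets were processed differently, and no level is compared between them.

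Cells make cholesterol from acetyl-CoA through mevalonate and squalene to lanosterol, which then loses 3 methyl groups and has its double bonds moved and reduced. The steps run on the membrane of the endoplasmic reticulum, and the liver is a main site of them. SREBP2, a membrane-bound transcription factor, switches on most of these genes when sterols in that membrane are low, and the Insig proteins hold it back when sterols are plentiful.

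All 9 are protein-coding genes, given here on GRCm38. Cyp51, the cytochrome P450 that removes the first methyl group, lies at chr5:4081145-4104746. Tm7sf2 at chr19:6062821-6068373 and Lbr at chr1:181815335-181843046 both encode a reductase for the double bond that this demethylation leaves, and Lbr also encodes the lamin B receptor of the inner nuclear membrane. Msmo1 (chr8:64718139-64733792), Nsdhl (chrX:72918557-72958514) and Hsd17b7 (chr1:169949535-169969241) encode the oxidase, the decarboxylating dehydrogenase and the ketone reductase that together remove the other methyl groups. Ebp (chrX:8185329-8193512) encodes the isomerase that moves a ring double bond, Sc5d (chr9:42251595-42264256) the desaturase that adds one, and Dhcr7 (chr7:143823145-143848410) the reductase that removes one. Exons of Cyp51, Lbr and Tm7sf2 overlap exons of other annotated genes (Akap9 and Dnah14 on the opposite strand, Gm26004 and Vps51 on the same strand), and the files do not say how shared reads were split.

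Promoter sequences are shown because several of the 9 genes were lower in A3B livers and others were not. RefSeq promoters of 300 bases (250 before to 50 after each start, GRCm38.p6) were available for all 9 genes, as 11 windows, 3 of them for Dhcr7. The letters CCAAT, read on both strands, were in 9 of these 11 windows, with at least 1 for each gene, and in 37.4% of 32851 promoters of the same length. The letters GGGCGG were in 10 of the 11 windows, again with at least 1 for each gene, and in 35.7% of all promoters. A form of the sterol response element, TCACNCCAC, was in none of the 11 windows and in 1.24% of all promoters. The looser TCACNNCAC, which includes it, was in a window of Msmo1, Hsd17b7 and Dhcr7 and in 3.77% of all promoters. These matches are a description of letters and do not show binding. The last 60 bases before the start are printed for 4 genes with no annotated UTR in that stretch: 3 that were lower in A3B livers (Sc5d, Ebp, Nsdhl) and Lbr, which was not. Capitals mark CCAAT or GGGCGG on either strand, and the lines give chr9:42264301-42264360 (minus strand), chrX:8193513-8193572 (minus), chrX:72918461-72918520 (plus) and chr1:181842402-181842461 (minus).
Sc5d: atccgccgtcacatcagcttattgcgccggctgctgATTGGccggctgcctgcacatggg
Ebp: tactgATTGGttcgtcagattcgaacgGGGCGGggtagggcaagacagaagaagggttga
Nsdhl: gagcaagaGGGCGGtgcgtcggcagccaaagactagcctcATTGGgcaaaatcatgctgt
Lbr: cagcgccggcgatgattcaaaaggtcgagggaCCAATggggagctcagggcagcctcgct
The CCAAT letters lie within this stretch in all 4, so this feature is shared by the 3 genes that were lower and by Lbr.

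In the livers of set 2, total estimated counts ran from 65161064 to 98780481 in A3B mice and from 104834346 to 118976013 in controls, and the lowest count of any of the 9 genes in an A3B liver was 237 (Tm7sf2). In control livers Sc5d (131 and 269 TPM), Ebp (169 and 210) and Tm7sf2 (151 and 164) were the most abundant and the range of Sc5d covered the values of both other genes. Msmo1 was at 92.2 and 92.6 TPM, and Dhcr7 (42.1 and 95.1), Cyp51 (42.4 and 54.2) and Nsdhl (38.4 and 52.8) followed with overlapping values. Hsd17b7 at 21.8 and 26.7 TPM and Lbr at 3.68 and 4.79 TPM were the lowest, below the other 7 genes in both controls. Ebp was above Sc5d in 1 of 2 controls and in 6 of 6 A3B livers, whereas Tm7sf2 had rank 3 by its median in controls and rank 6 in A3B livers.

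The comparison of A3B with control livers of set 2 asked which of these enzymes differ at the RNA level. Tm7sf2, Nsdhl, Sc5d and Ebp were lower, none of the 9 was higher, and Cyp51 fell short of the threshold by a small margin. Expressed as fold, the 4 genes were between 3.5 and 11.4 times lower. Of 17376 genes tested with edgeR's quasi-likelihood test, 2.41% were lower and 1.25% were higher, at an adjusted p under 0.05. The median log2 fold change was -1.81 for the 9 genes and 0.21 for all genes tested. The 9 genes together summed to 692 and 969 TPM in controls and to 157 to 397 TPM (median 271) in A3B livers. Every A3B liver was below both controls in TPM for 5 of the 9 genes, which 5.42% of all genes tested also showed, and none of the 9 was above both in every A3B liver, as 24.3% of all genes were.

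Tm7sf2 ranged from 3.62 to 26.9 TPM (median 19.5) in A3B livers against 151 and 164 TPM in controls. The groups lay far apart, and A3B liver 49 was the lowest. Its log2 fold change was -3.51 ± 0.54 (SE, edgeR, adjusted p = 0.0131). The mean was 17.7 ± 8.27 TPM in A3B livers (SD, n = 6) and 158 ± 9.27 TPM in controls (SD, n = 2). Lbr, which encodes the other enzyme for the same step, was at 3.60 to 8.57 TPM (median 6.13) in A3B livers and 3.68 and 4.79 TPM in controls. The groups overlapped, with a log2 fold change of 0.03 ± 0.34 (adjusted p = 0.969). Within each liver, Lbr made up 2.37% and 2.83% of the summed TPM of both genes in controls and 11.8% to 69.3% (median 25.6%) in A3B livers.

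Cyp51, which starts the sequence, was at 3.14 to 20.7 TPM (median 7.05) in A3B livers and at 42.4 and 54.2 TPM in controls. All 6 A3B livers were below both controls, and A3B liver 48 was the highest of them. The log2 fold change was -2.71 ± 0.66 and the adjusted p 0.0545, just above the threshold.

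Of the 3 genes for removal of the other methyl groups, only Nsdhl passed the test. It was at 2.24 to 16.7 TPM (median 3.93) in A3B livers, where liver 48 was again the highest and the next was 4.93, and at 38.4 and 52.8 TPM in controls. This gave a log2 fold change of -3.19 ± 0.70 (adjusted p = 0.0416). Msmo1 was at 19.2 to 120 TPM (median 29.7) in A3B livers and at 92.2 and 92.6 TPM in controls. Liver 48 at 120 TPM lay above both controls, and the other 5 A3B livers, at 33.5 TPM or less, lay below them. The fitted log2 fold change was -1.49 ± 0.68 (adjusted p = 0.225). Hsd17b7 ranged from 14.3 to 42.7 TPM (median 20.4) in A3B livers around the 21.8 and 26.7 TPM of the controls. Its log2 fold change was -0.44 ± 0.24 (adjusted p = 0.314), and its direction turned to 0.03 when counts were scaled by library totals alone.

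The late enzymes differed among themselves. Sc5d was at 33.3 to 63.0 TPM (median 45.2) in A3B livers against 131 and 269 TPM in controls, a log2 fold change of -2.30 ± 0.39 (adjusted p = 0.0172). Ebp was at 46.1 to 111 TPM (median 78.9) against 169 and 210 TPM, a log2 fold change of -1.81 ± 0.32 (adjusted p = 0.0195). For both genes the groups did not overlap. Dhcr7 was at 17.0 to 88.9 TPM (median 37.2) in A3B livers. Liver 153, the highest, and liver 44, at 44.7 TPM, lay between the 2 controls at 42.1 and 95.1 TPM. The log2 fold change of -1.01 ± 0.50 did not pass (adjusted p = 0.263).

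**Figure D1:**
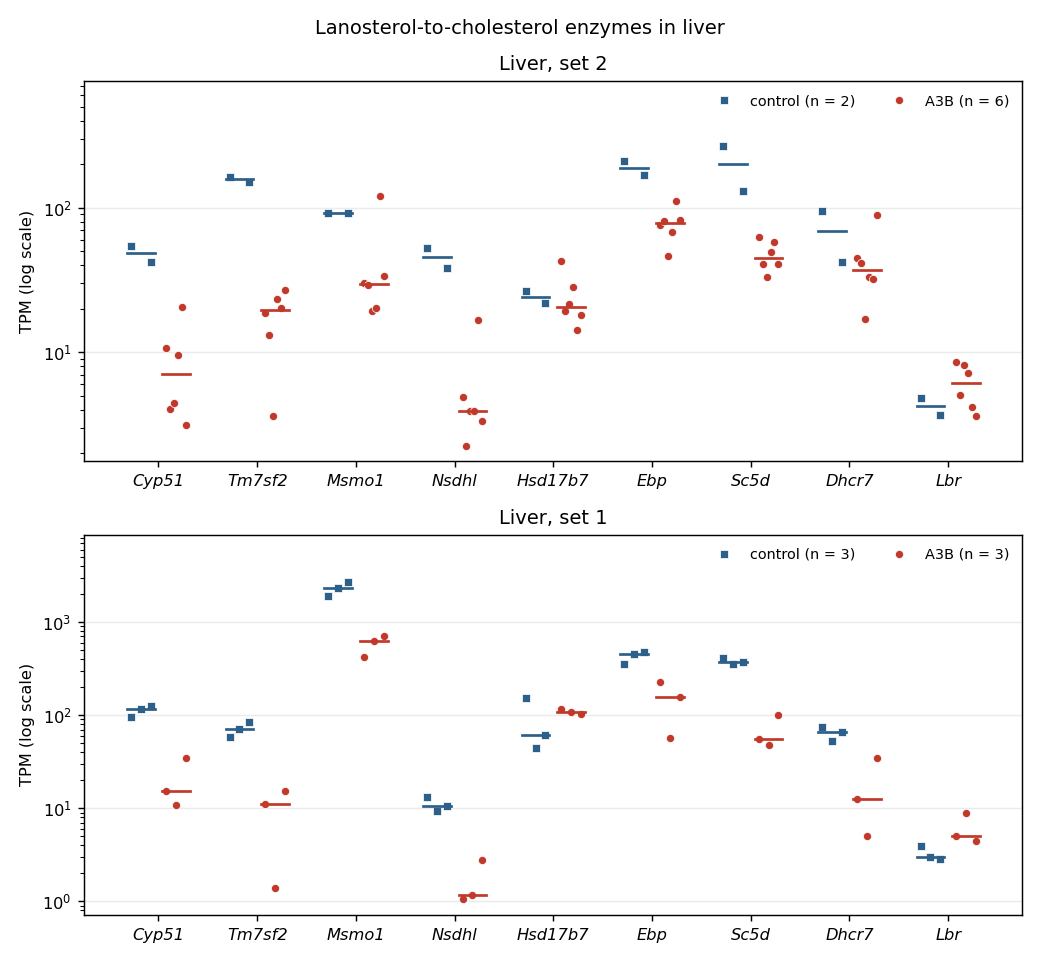
Each point is the TPM of 1 liver on a log scale for the 9 enzymes, with controls as squares, A3B mice as circles and a bar at the group median, for set 2 above and set 1 below. In set 2 the A3B livers lie below both controls for Cyp51, Tm7sf2, Nsdhl, Ebp and Sc5d, and 1 A3B liver stands above the controls for Msmo1 at 120 TPM.

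Single libraries weighed on these calls. Without A3B liver 48, 6 of the 9 genes were lower, with Cyp51 at a log2 fold change of -3.50 and Msmo1 at -2.36, and 738 of all genes were lower in place of 418. Without control liver 45, 168 or A3B liver 137, the count was 0, 1 and 1, with 64, 70 and 133 of all genes lower, and the 5 log2 fold changes furthest below 0 lay between -1.83 and -3.67, between -1.92 and -3.52 and between -1.84 and -3.45. DESeq2 with its own size factors called 3 of the 9 lower (Tm7sf2, Ebp and Sc5d) and 1099 of all genes, and gave no adjusted p for Cyp51, Msmo1 and Nsdhl.

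A3B liver 48 stood apart in its marker sums and in which transcripts carried the reads. Its endothelial, leukocyte and fibroblast markers summed to 10.5, 10.7 and 20.2 TPM, the lowest of the 8 livers, against at least 40.0, 27.6 and 102 TPM in the other A3B livers. Its leading 10 genes held 24.8% of counts, against 13.9% to 17.6% in the other A3B livers and 21.9% and 24.4% in controls. In this liver 23.2% of Msmo1 TPM, 22.5% of Ebp TPM and 29.9% of Lbr TPM fell on protein-coding transcripts, against at least 66.0%, 86.5% and 89.9% in the other A3B livers. Hsd17b7 went the other way, with 100% on protein-coding transcripts in liver 48 and 59.9% to 78.3% in the other A3B livers. Over all genes that share was 82.1% in liver 48 and 85.4% to 87.7% in the others. The Msmo1 transcript that led there, ENSMUST00000145216.7, is annotated as non-coding and joins exon 1 (chr8:64733508-64733581) directly to the exon at chr8:64722464-64722590. It leaves out exons 2 (chr8:64727624-64727908) and 3 (chr8:64723588-64723736) of the main coding transcript, ENSMUST00000034015.10. It was at 91.0 TPM in liver 48, at 2.06 to 7.90 TPM in the other A3B livers and at 19.6 and 28.3 TPM in controls. The coding transcript was at 25.3 TPM in liver 48, the highest of the A3B livers (10.2 to 25.3 TPM), and at 57.0 and 53.6 TPM in controls, so for this transcript the groups did not overlap. The joins that set the Msmo1 transcripts apart, and the Ebp stretch described below, are printed from the GENCODE M21 transcripts, with the first 15 bases in lower case and the 15 bases after the join in capitals.
Msmo1 non-coding, exon 1 to coding exon 4: tcgcggggacgccagGTACTTAACTTTGGC
Msmo1 coding, exon 1 to exon 2: tcgcggggacgccagGAATAAAAGGTCCCT
Ebp non-coding, retained intron to coding exon 4: tcttttctcttgcagTAGTGACAGCTTCGT
For Ebp, the transcript in question is ENSMUST00000140011.1, which keeps the 108-base intron at chrX:8186775-8186882, between exons 3 and 4 of the main coding transcript. It was at 85.5 TPM in liver 48, at 2.28 to 4.11 TPM in the other A3B livers and at 0.822 and 1.47 TPM in controls. The coding transcript ENSMUST00000033509.14 was at 25 TPM in liver 48, the lowest of all 8 livers, at 35.0 to 68.3 TPM in the other A3B livers and at 150 and 186 TPM in controls. With protein-coding transcripts alone summed, an alternative chosen after seeing the data, Msmo1 was lower in A3B livers with a log2 fold change of -1.97, Ebp was at -2.09, and the count of the 9 genes called lower was again 4, with 356 of all genes lower and 141 higher, and Nsdhl was no longer among them at -3.11. Transcript values are estimates that share reads between overlapping transcripts, and why liver 48 differs was not tested.

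**Figure D2:**
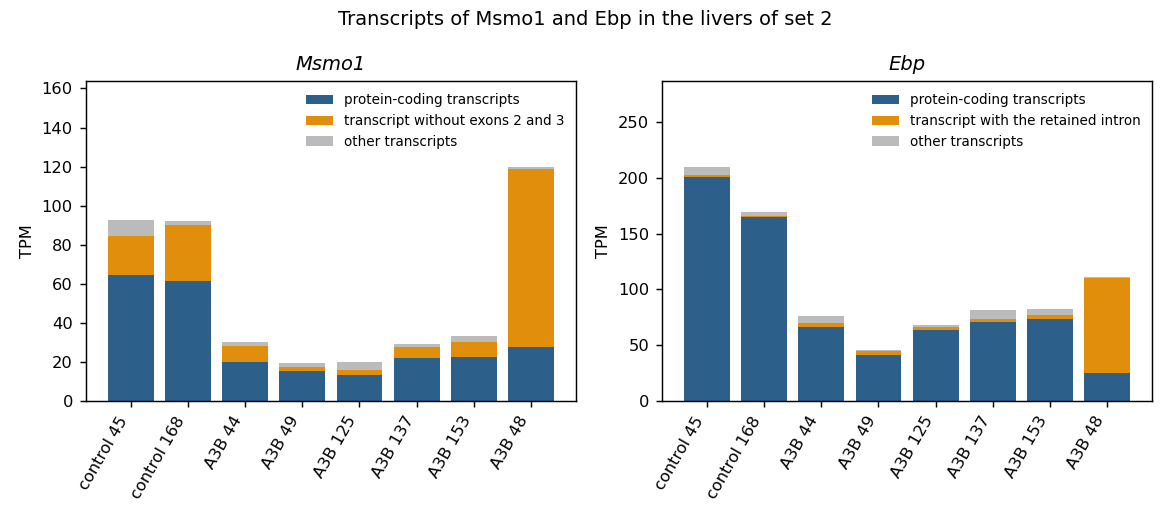
Bars give the TPM of Msmo1 (left) and Ebp (right) in each liver of set 2, split into protein-coding transcripts, the 1 named non-coding transcript and all others. A3B liver 48 at the right carries 91.0 TPM of the Msmo1 transcript without exons 2 and 3 and 85.5 TPM of the Ebp transcript with the retained intron.

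The summed TPM of the 7 hepatocyte markers found (the listed Tf was not matched) was 35700 to 85800 in A3B livers and 86900 to 146000 in controls, and 0 of the 7 passed the test. Albumin (Alb, mean 31700 against 81200 TPM) and transthyretin (Ttr, 3420 against 7730 TPM) carried this difference, and they were below both controls in every A3B liver. The other 5 markers overlapped between the groups, as Apoa1 did at 13600 against 14000 TPM and Fgb at 2150 against 1510 TPM. The leukocyte sum was 10.7 to 89.5 TPM against 42.8 to 67.9, and the fibroblast sum 20.2 to 211 TPM against 66.7 to 127. In bulk tissue, fewer hepatocytes and less of these RNAs in each hepatocyte cannot be told apart.

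The same question was asked of the livers of set 1, with limma on log2(TPM + 1), so that the fold changes of low genes are understated. Of the 9 genes, 5 were lower (Cyp51, Tm7sf2, Msmo1, Nsdhl and Sc5d) and none was higher, where 1.86% of the 11507 genes tested were lower and 6.07% were higher. Every A3B liver was below every control for 7 of the 9, a pattern of 10.3% of all genes, and above every control for Lbr alone, a pattern of 28.5%. The median log2 fold change was -2.18 for the 9 genes and 0.39 for all genes. The 7 hepatocyte markers summed to 5910 to 7130 TPM in A3B livers and 7820 to 9710 TPM in controls. Serpina1c was lower (limma, adjusted p = 0.0414), Ttr, Apoa1 and Apoc3 were below every control in every A3B liver without passing, and Alb, Fgb and Cps1 overlapped. The part of the hepatocyte markers in the values of the 9 genes was not tested. Since earlier results of the same study led to the choice of these genes, this is not independent support for the first liver set.

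Tm7sf2 was at 11.0, 1.38 and 15.3 TPM in A3B livers 23, 28 and 70 and at 58.7, 71.7 and 83.5 TPM in controls 11, 91 and 92. Its log2 fold change was -3.21 ± 0.69 (SE, n = 3 and 3, limma, adjusted p = 0.0402). Lbr was at 4.98, 8.80 and 4.47 TPM in the same A3B livers and at 3.98, 2.97 and 2.84 TPM in the controls, so all A3B livers were above all controls, at 0.69 ± 0.33 (adjusted p = 0.187). The share of Lbr in the summed TPM of both was 3.28% to 6.35% in controls and 22.6% to 86.4% in A3B livers.

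Sc5d was at 55.6, 47.6 and 100 TPM in A3B livers and at 411, 358 and 371 TPM in controls, with a log2 fold change of -2.54 ± 0.35 (limma, adjusted p = 0.018). Cyp51 was at 15.5, 10.9 and 35.1 TPM against 96.0, 116 and 126 TPM, a log2 fold change of -2.55 ± 0.44 (adjusted p = 0.0268). Nsdhl was at 1.06, 1.18 and 2.81 TPM against 13.3, 9.25 and 10.5 TPM, at -2.21 ± 0.34 (adjusted p = 0.0223). A3B liver 70 was the highest A3B liver for these 3 genes and for Tm7sf2, Msmo1 and Dhcr7, and it was still below every control. By the labels liver 70 had 10 days on the diet and livers 23 and 28 had 14. Msmo1 was at 420, 626 and 701 TPM against 1920, 2320 and 2660 TPM, at -2.0 ± 0.32 (adjusted p = 0.0228).

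Ebp at 226, 57.1 and 156 TPM against 354, 454 and 472 TPM had a log2 fold change of -1.74 ± 0.51 (adjusted p = 0.0711). Dhcr7 at 12.6, 5.01 and 35.1 TPM against 74.2, 52.7 and 66.5 TPM had one of -2.18 ± 0.61 (adjusted p = 0.0653). Neither passed, although the groups did not overlap for either gene. Hsd17b7 was at 117, 109 and 104 TPM in A3B livers and at 154, 44.2 and 60.5 TPM in controls. Control liver 11, labelled with both transgenes, was the highest of all 6 and the other 2 controls the lowest, and the log2 fold change was 0.55 ± 0.47 (adjusted p = 0.43), or 1.07 without control 11. With only 3 livers a group these calls were fragile. None of the 9 passed without A3B liver 23, control 91 or control 92, nor with genes of low TPM kept in the test. Without control 91, 1 of all genes was higher and 0 were lower, so that count is not particular to the 9.

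**Figure D3:**
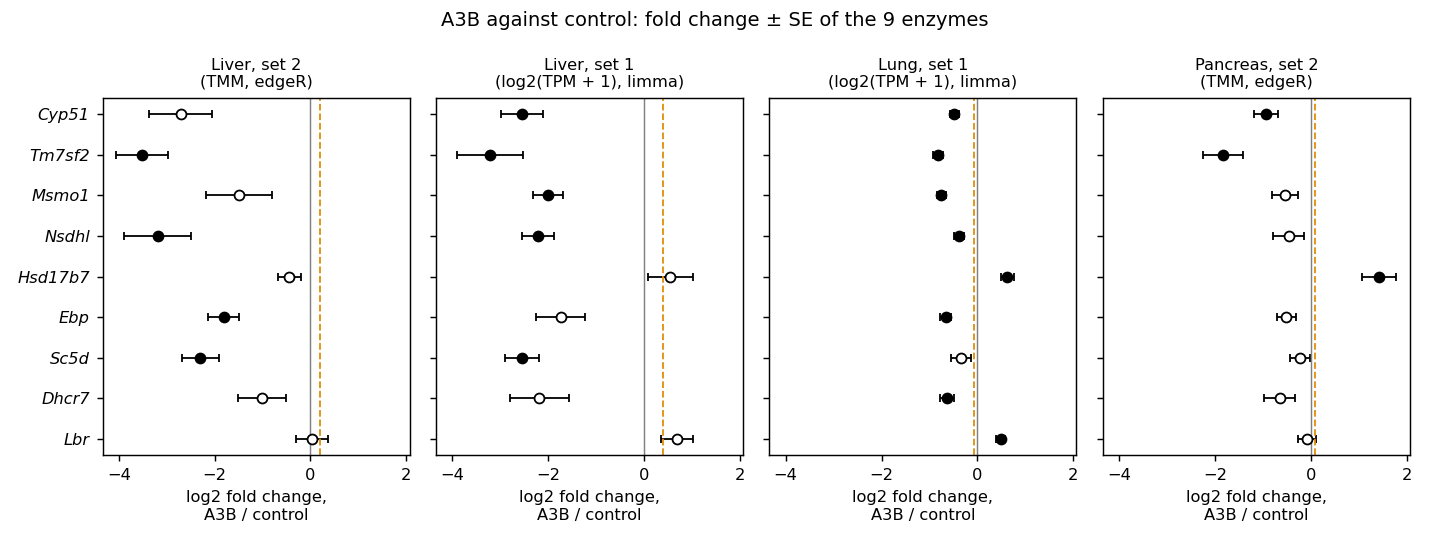
Points give the log2 fold change, A3B over control, of each enzyme with its SE in the 4 comparisons, filled where the adjusted p was under 0.05, with a dashed line at the median of all genes tested. The liver panels hold the largest differences, down to -3.51 for Tm7sf2 in set 2, and the lung differences lie between -0.82 and 0.63.

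In the lung of set 1, 6 of the 9 genes were lower (Cyp51, Tm7sf2, Msmo1, Nsdhl, Ebp and Dhcr7) and 2 were higher (Hsd17b7 and Lbr). These counts stand against a high background, since 20.8% of the 13651 genes tested were lower and 16.1% were higher. The same 6 genes were below every control in every A3B lung, as were 30.6% of all genes, and the same 2 above, as were 23.3%. The median log2 fold change was -0.48 for the 9 genes and -0.06 for all. Tm7sf2 was at 2.42, 2.39 and 2.81 TPM in A3B lungs 69, 70 and 74 and at 5.09, 5.40 and 5.19 TPM in controls 87, 88 and 91, a log2 fold change of -0.82 ± 0.10 (limma, adjusted p = 0.00339). Lbr went the other way, at 26.4, 24.0 and 26.6 TPM against 18.3, 18.6 and 17.1 TPM, with 0.49 ± 0.09 (adjusted p = 0.00882). In the lung, unlike the liver, Lbr was the more abundant of these reductase genes already in controls, with 76.8% to 78.2% of their summed TPM, and it held 90.5% to 91.6% in A3B lungs.

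Msmo1 was at 279, 269 and 282 TPM in A3B lungs against 494, 442 and 462 TPM, at -0.75 ± 0.09 (limma, adjusted p = 0.00336). Hsd17b7 was at 23.0, 22.0 and 19.0 TPM against 12.2, 15.9 and 12.4 TPM, at 0.63 ± 0.13 (adjusted p = 0.0138). Ebp (-0.66 ± 0.11), Dhcr7 (-0.63 ± 0.15), Cyp51 (-0.48 ± 0.09) and Nsdhl (-0.38 ± 0.10) were lower, with adjusted p values from 0.00754 to 0.0248. Sc5d at 14.4, 19.0 and 20.7 TPM overlapped the controls at 18.1, 29.5 and 22.5 TPM (-0.34 ± 0.20, adjusted p = 0.222). The 8 lung epithelial markers summed to 18600 to 20300 TPM in A3B lungs and 19600 to 21000 TPM in controls. Hepatocyte markers were also found, at 10.2 to 564 TPM in A3B lungs and 0.892 to 675 TPM in controls, and their part in these values was not tested.

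The difference between the A3B effects in lung and liver of set 1 was tested as an interaction, which 10.7% of 13477 genes passed. Of the 9 genes, 4 passed: Nsdhl with a difference of 1.83 ± 0.32 (lung minus liver, log2, limma, adjusted p = 0.00844), Sc5d with 2.2 ± 0.40 (adjusted p = 0.01), Cyp51 with 2.07 ± 0.47 (adjusted p = 0.021) and Msmo1 with 1.25 ± 0.29 (adjusted p = 0.0243). All 4 had a log2 fold change further below 0 in the liver than in the lung, where Sc5d did not pass, while the median difference of all genes was -0.39. By the labels A3B livers 23 and 28 had 14 days on the diet and A3B liver 70 and all 3 A3B lungs had 10 days, so tissue is partly confounded with time on the diet. Tm7sf2, at 2.39 ± 0.78, did not pass (adjusted p = 0.0716). The count was 2, with Nsdhl and Sc5d, without any 1 of the A3B lungs, control lungs 87 or 91, or control livers 91 or 92. Over all genes 1448 passed in either direction in the main fit. The lowest counts of the alternatives were 115 above 0, without control lung 91, and 455 below 0, without control liver 92.

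In the pancreas of set 2, with total estimated counts of 74836907 to 87633469 in A3B mice and 87288183 to 95604352 in controls, the direction of these genes depended on the scale. The leading 10 genes held 62.2% and 59.5% of all counts in control pancreases and 12% to 20.4% in A3B pancreases. The acinar markers summed to 380000 to 384000 TPM in controls and 57700 to 165000 TPM in A3B mice, and 8 of 10 were lower. The fibroblast sum was 40.1 to 173 TPM in controls and 977 to 1500 TPM in A3B mice, and 6 of 7 were higher. A drop in a few very abundant RNAs raises the share of every other RNA, and the makeup of the tissue cannot be told apart from a change within its cells. On TPM every A3B pancreas was above both controls for 7 of the 9 genes, as it was for 70.8% of all genes tested, and below both for none, against 1.07% of all genes. TMM, which scales on the bulk of genes, gave factors of 0.21 and 0.443 in controls and 1.3 to 1.79 in A3B pancreases and put the median of all genes at a log2 fold change of 0.09, against 2.29 with library totals alone and 1.75 on log2(TPM + 1).

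On the TMM scale Cyp51 and Tm7sf2 were lower and Hsd17b7 was higher, where 14.9% of 19142 genes were lower and 17% were higher. Hsd17b7 was at 1.82 to 3.03 TPM (median 2.34) in A3B pancreases and 0.133 and 0.343 TPM in controls, where its lowest count was 32. It was the only one of the 9 that was higher on all 3 scales, with log2 fold changes of 1.43 ± 0.35 (edgeR on TMM, adjusted p = 0.0119), 3.51 on library totals and 1.45 on log2(TPM + 1). Tm7sf2 was at 1.37 to 4.76 TPM (median 3.32) against 2.14 and 2.63 TPM, overlapping. Its log2 fold change was -1.83 ± 0.41 on TMM (adjusted p = 0.00702), 0.52 on library totals and 0.25 on log2(TPM + 1). Cyp51 was at 1.79 to 3.0 TPM (median 2.60) against 0.703 and 1.43 TPM, and was at -0.94 ± 0.25 on TMM (adjusted p = 0.0165) but at 1.28 and 0.80 on the other scales.

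The other 6 genes had log2 fold changes from -0.65 to -0.08 on TMM and did not pass, and with library totals or log2(TPM + 1) all 6 were higher, as were 70.4% and 83.9% of all genes tested on those scales. Sc5d, for example, was at 12.3 to 15.4 TPM (median 13.2) against 1.72 and 3.0 TPM, and at -0.23 ± 0.21 on TMM. Lbr was at 12.8 to 18.8 TPM (median 14.4) against 2.0 and 5.67 TPM, and at -0.08 ± 0.19. A ratio inside a sample does not depend on the scale. Lbr held 48.3% and 68.3% of the summed TPM of Lbr and Tm7sf2 in control pancreases and 77.7% to 91.1% in A3B pancreases. As in liver and lung, every A3B sample lay above every control in this share. How often other gene pairs separate in this way was not tested. In the pancreas Lbr was above both controls on TPM, as were 70.8% of all genes, while Tm7sf2 overlapped. On TMM with control pancreas 168 as the only control, log2 fold changes were -1.35 for Tm7sf2, -0.83 for Cyp51 and 1.21 for Hsd17b7. With control 45 as the only control they were -2.17, -1.02 and 1.73. Such fits give no measure of the spread among controls.

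**Figure D4:**
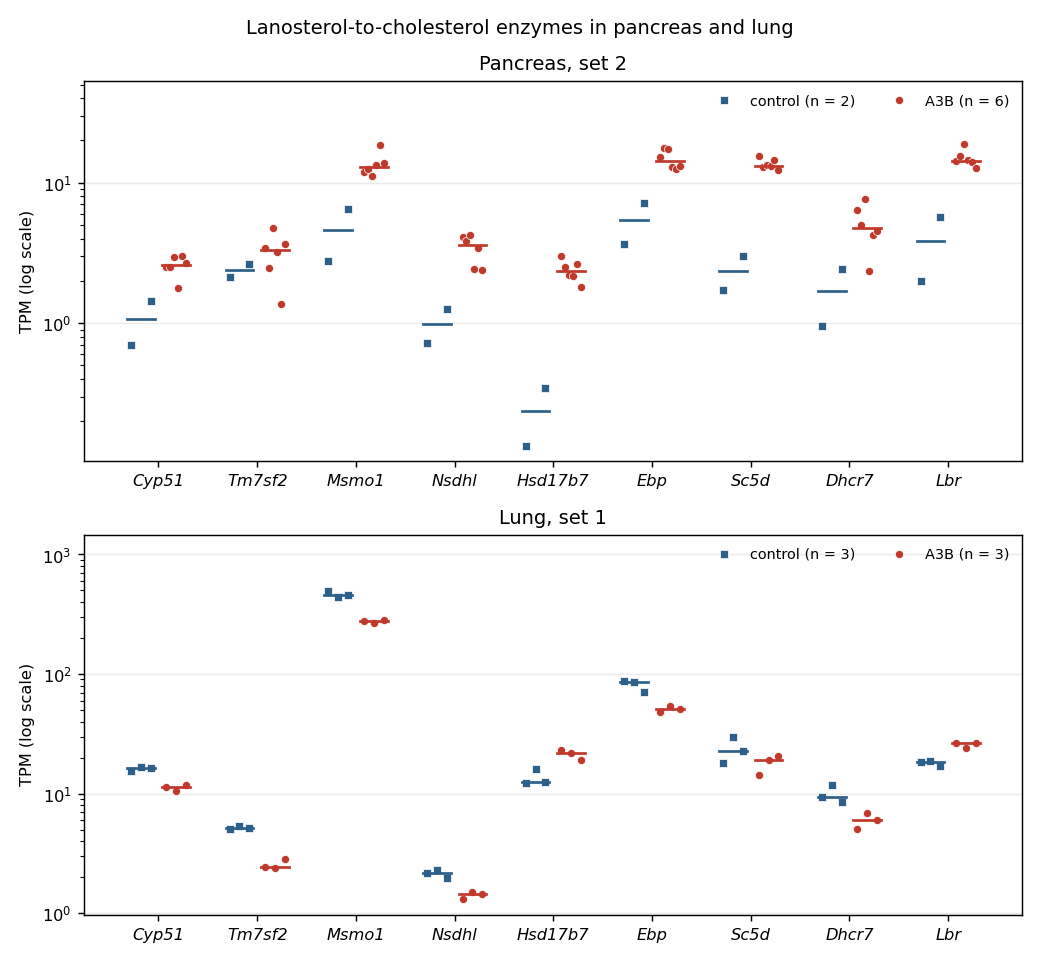
Each point is the TPM of 1 sample on a log scale for the 9 enzymes, with controls as squares, A3B mice as circles and a bar at the group median, for the pancreas of set 2 above and the lung of set 1 below. In the pancreas all but Tm7sf2 and Dhcr7 lie above both controls, and in the lung Hsd17b7 and Lbr lie above the controls while 6 others lie below.

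**Figure D5:**
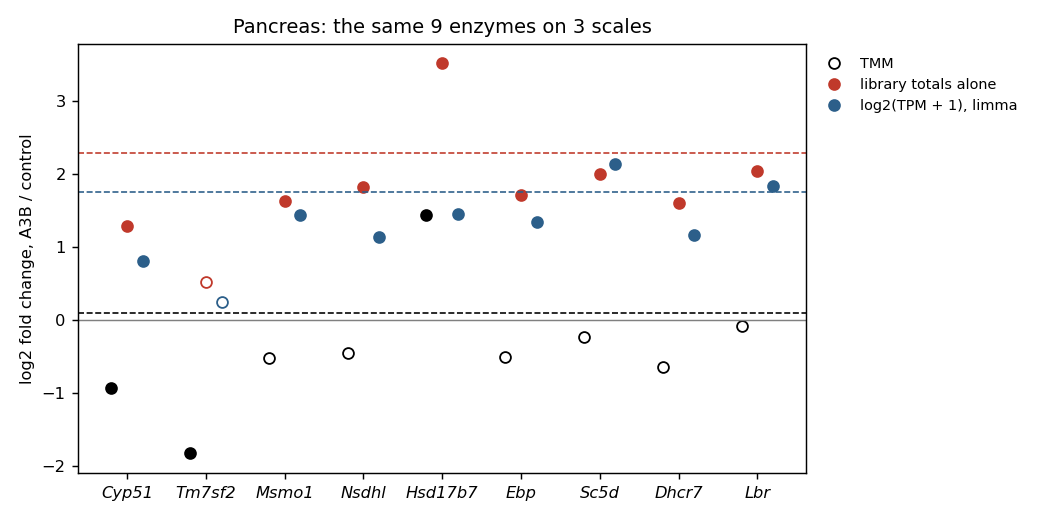
Points give the log2 fold change of each enzyme in the pancreas on TMM, library totals and log2(TPM + 1), filled where the adjusted p was under 0.05, with dashed lines at the median of all genes on each scale (0.09, 2.29 and 1.75). Apart from Hsd17b7, each gene lies below 0 on TMM and above 0 on the other scales, and Lbr is at -0.08 on TMM.

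The A3B effects in pancreas and liver of set 2 were compared in 1 edgeR fit over the 16 samples, in which 11.9% of 19927 genes differed. Hsd17b7 (pancreas minus liver 2.02 ± 0.37, adjusted p = 0.00541), Sc5d (2.24 ± 0.50, adjusted p = 0.0116) and Ebp (1.46 ± 0.41, adjusted p = 0.0311) differed. Nsdhl had the largest difference, 2.91 ± 0.94, and an adjusted p of 0.0551. With the mouse as a block in the 7 animals that gave both tissues, 5 of the 9 differed (Cyp51 2.71, Msmo1 1.88, Nsdhl 3.73, Hsd17b7 2.02 and Sc5d 2.43), and Ebp no longer passed, with 1070 of all genes above 0 and 492 below 0 passing in that fit. The same 7 animals without the block gave 6, with 1349 and 949 of all genes, and A3B liver 48 is not among them. Without control liver 45 or control pancreas 45 only Hsd17b7 passed. These differences depend on the scale as the pancreas values do: with library totals or log2(TPM + 1) all 9 differed. With library totals, 7848 of all genes passed with a difference above 0 and 223 with one below 0. On log2(TPM + 1) these counts were 7691 and 140.

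Enzymes upstream and partners of the 9 were taken as lists written from general knowledge. Of the 11 genes from mevalonate to lanosterol, 3 were lower in the livers of set 2, where 2.41% of all genes were. All 11 had a negative log2 fold change, as did 40% of all genes, and their median was -2.18. Pmvk (-2.91 ± 0.32, edgeR, adjusted p = 0.00444), Fdps (-2.45 ± 0.48, adjusted p = 0.028) and Mvk (-1.88 ± 0.37, adjusted p = 0.028) passed; Pmvk and Mvk encode kinases of the mevalonate steps and Fdps the synthase of farnesyl diphosphate. In the livers of set 1, 8 of the 11 were lower, against 1.86% of all genes. In the lung 4 were lower and 2 higher, against 20.8% and 16.1% of all genes, and in the pancreas 3 were lower on the TMM scale, against 14.9%.

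Of 8 electron donors and partners, 3 were lower in the livers of set 2, against 2.41% of all genes. Cyb5b, a cytochrome b5 of the outer mitochondrial membrane, was at 22.6 to 42.8 TPM against 106 and 140 TPM (-2.27 ± 0.27, edgeR, adjusted p = 0.00497), and Cyb5r3, the cytochrome b5 reductase, was at 120 to 218 TPM against 339 and 459 TPM (-1.76 ± 0.33, adjusted p = 0.0242). Tmem97, a sterol-binding protein, was at -1.38 ± 0.27 (adjusted p = 0.0274). Por, which passes electrons to Cyp51 and is named here after its values were seen, was at 0.26 ± 0.64 (adjusted p = 0.842). In the livers of set 1, where 1.86% of all genes were lower, only Cyb5b passed (-1.97 ± 0.31, limma, adjusted p = 0.0223), with Cyb5r3 at -1.19 ± 0.29 (adjusted p = 0.0503) and Tmem97 at -0.88 ± 0.48 (adjusted p = 0.239). Por was above every control there, at 1.22 ± 0.41 (adjusted p = 0.0935). In the lung 5 of the 8 were lower, against 20.8% of all genes, and in the pancreas 1 was lower and 1 higher, against 14.9% and 17%.

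Of 20 genes of sterol regulation and traffic, 5 were lower and none was higher in the livers of set 2, against 2.41% and 1.25% of all genes. In the livers of set 1, 2 of the 19 tested were lower, against 1.86% of all genes. In the lung 2 of 19 were lower and 3 higher, against 20.8% and 16.1% of all genes, and in the pancreas 2 were lower and 6 higher, against 14.9% and 17% of all genes there. The 3 with the smallest p in the livers of set 2 were Srebf1 (-3.65 ± 0.38, edgeR, adjusted p = 0.00389), which encodes the SREBP form that serves mainly fatty acid synthesis, Srebf2 (-1.53 ± 0.23, adjusted p = 0.01), which encodes SREBP2, and Stard4 (-3.62 ± 0.58, adjusted p = 0.0142), a sterol carrier. Srebf2 was at 9.86 to 17.7 TPM in A3B livers and 20.6 and 29.4 TPM in controls. In set 1 it overlapped, at 16.7 to 40.2 TPM against 37.1 to 54.7 TPM (limma, -0.80 ± 0.39, adjusted p = 0.191).

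Among 8898 other genes whose mean was 5 TPM or more, the 5 whose log2 CPM (counts scaled to the library size) followed the mean of the 9 most closely over the 8 livers of set 2 were Cyp2d38-ps, Fam213a, Mup-ps16, Insig1 and Fdps, with Pearson r of 0.98 to 0.99. These r values come from 6 A3B livers and 2 controls and carry the group difference. Over the 6 livers of set 1 r was 0.99 for Insig1, 0.98 for Fdps and 0.75 for Fam213a. Against the mean of the other 8, Sc5d had an r of 0.97 over the 8 livers and 0.96 over the 6 A3B livers alone, and Ebp had 0.96 and 0.76. Lbr had -0.18 and -0.46, and Hsd17b7 0.69 and 0.25. These are descriptions over points that share library depth and group.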

How the data were processed

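RNA of mouse liver, lung and pancreas was sequenced by the study as stranded, paired-end total RNA libraries. For set 2 (16 samples), the authors deposited estimated counts and TPM per transcript from kallisto (builds named in the submitters' processing notes: GRCm38 and mm10). For set 1 (12 samples), they deposited 1 table of TPM per gene, with column names that point to sorted alignments with duplicates removed. Set 1 holds no counts, so its depth is unknown. Of 119414 transcripts, 116728 matched a gene name, giving 35928 symbols (the unmatched held 0.225% to 1.46% of counts and were left out of library sizes), and 4 rows of the set 1 table with repeated names were left out.

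For each gene, the estimated counts of its transcripts were added up and rounded to whole numbers. Within set 2, edgeR 4.0.16 (quasi-likelihood test, robust, TMM, filterByExpr) compared A3B with control samples in each tissue. Within set 1, limma 3.58.1 (trend and robust) was run on log2(TPM + 1) for genes whose mean reached 1 TPM. Interactions used all samples of a set. P-values were Benjamini-Hochberg adjusted over all genes tested, with a threshold of 0.05, and each script was tested on simulated data. The SE of an edgeR log2 fold change was taken from the F statistic. Tests compare different mice, identified by number. Tissues of 1 mouse pair by animal: 7 mice gave both liver and pancreas in set 2, with same-mouse correlations of deviations from -0.02 to 0.29 over 16748 genes, and mice 70 and 91 gave both liver and lung in set 1.

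All 9 enzymes are named in each comparison, with up to 3 genes per pathway list (smallest p in the liver of set 2) and the 5 genes most like the mean of the 9. The members and lists were chosen with earlier results of these data known. Alternatives covered scaling, filters, pseudocount, DESeq2 1.42.0, transcript level, protein-coding transcripts alone, Y-linked expression as a covariate, the replicate block and leaving out each sample. Sequences came from RefSeq (GRCm38.p6) and GENCODE M21.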

Additional observations from a re-analysis of the deposited data

Results flagged for a closer look

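Among the 9 enzymes in the 2 groups of 6 A3B samples, 18 gene and group pairs were searched for a sample far from the rest, where chance gives about 1 in 20, and 3 were found. Msmo1 was at 120 TPM in A3B liver 48, with the next liver at 33.5 TPM. Nsdhl was at 16.7 TPM in the same liver, with the next at 4.93 TPM. Msmo1 was at 18.7 TPM in A3B pancreas 137, with the next at 13.8 TPM.

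The A3B effect differed between tissues for 6 enzymes by a test of the difference itself, which 11.9% of all genes passed between pancreas and liver and 10.7% between lung and liver. Between pancreas and liver of set 2 (edgeR) the log2 differences were 2.02 for Hsd17b7, 1.46 for Ebp and 2.24 for Sc5d. These come from the fit without the mouse as a block, and with the block in 7 mice Ebp did not pass and Cyp51, Msmo1 and Nsdhl did. Between lung and liver of set 1 (limma) they were 2.07 for Cyp51, 1.25 for Msmo1, 1.83 for Nsdhl and 2.2 for Sc5d. Sc5d was the gene that passed in both, and its log2 fold change in liver was -2.30 in set 2 and -2.54 in set 1. The liver libraries stand in each of these differences together with the other tissue of the same set.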

How the results depend on the processing

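With 2 controls in set 2 and 3 samples a group in set 1, single samples decided many calls. Leaving out 1 sample at a time gave 0 to 6 enzymes lower in the liver of set 2, 0 to 6 lower in the liver of set 1, 4 to 6 lower and 2 higher in the lung, 0 to 2 lower and 0 to 1 higher in the pancreas, 1 to 6 differing between pancreas and liver and 2 to 6 between lung and liver. Tested per transcript, with the most abundant transcript of each enzyme, 1 enzyme was lower in the liver of set 2. Of all 59526 transcripts tested there, 82 were lower and 14 higher. In the pancreas none of the enzymes was lower and 2 were higher by this test. Of all 67340 transcripts tested there, 2270 were lower and 8734 higher. In the pancreas 0 were lower and 8 higher with library totals and with log2(TPM + 1), scales on which 70.4% and 83.9% of all genes tested were higher. In the liver of set 1 none passed without the filter on low values. With the mouse as a replicate block in 7 mice, 5 enzymes differed between pancreas and liver, against 6 without the block in these mice. All 9 differed with library totals or log2(TPM + 1), where 7848 and 7691 of all genes passed above 0. A common correlation of 0.54 as the block in set 1 left the count at 4. A3B and control samples of 1 tissue are different mice, so no block applies there.

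Directions turned as follows. In the liver of set 2 Lbr was at -0.04 with DESeq2 and with RLE factors, -0.38 per transcript, -0.14 with protein-coding transcripts alone and -0.14 to 0.13 with 1 sample left out (-0.08, -0.13, -0.14, -0.06 and -0.06 where it turned), and Hsd17b7 was at 0.03 with library totals. In the pancreas the log2 fold changes with library totals were 1.28 (Cyp51), 0.52 (Tm7sf2), 1.63 (Msmo1), 1.82 (Nsdhl), 1.71 (Ebp), 2.0 (Sc5d), 1.60 (Dhcr7) and 2.04 (Lbr), and with log2(TPM + 1) 0.80, 0.25, 1.44, 1.13, 1.34, 2.14, 1.16 and 1.83. Per transcript they were 0.37 (Msmo1), 0.04 (Nsdhl), 0.47 (Ebp), 1.58 (Sc5d) and 0.79 (Lbr). Lbr was at 0.20 with protein-coding transcripts alone and from -0.27 to 0.20 with 1 sample left out, with the turn without control pancreas 168. Between pancreas and liver Lbr was at -0.02 with DESeq2 and without the block in 7 mice, and at -0.16 to 0.36 with 1 sample left out (-0.01, -0.01, -0.04 and -0.16 where it turned). Between lung and liver Hsd17b7 was at -0.07 with the replicate block and -0.44 to 0.44 with 1 sample left out, turning without control liver 11, and Lbr was at -0.36 to 0.06, turning without A3B liver 28. Apart from scaling in the pancreas, whose construction shows the shift of all genes, the cause was not tested.

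Counts over all genes moved too: 3 to 1302 higher and 64 to 1099 lower in the liver of set 2, 1 to 1362 and 0 to 511 in the liver of set 1, 1384 to 2593 and 1546 to 2846 in the lung, and 2063 to 13483 and 152 to 3297 in the pancreas. The differences between tissues gave 421 to 7848 and 114 to 1919 for pancreas against liver, and 115 to 772 and 455 to 2480 for lung against liver.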
